A study of Mus musculus with 7 samples.

Results

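Decorin (Dcn), lumican (Lum), keratocan (Kera) and epiphycan (Epyc) form a cluster of 4 small leucine-rich proteoglycan genes on mouse chromosome 10, and their transcripts were measured in single GV oocytes by RNA-seq. A GV oocyte is fully grown, still arrested in meiosis, and has an intact nucleus, the germinal vesicle. The 4 genes were selected on earlier results of the same comparison between Setd1b cKO and Setd1b WT oocytes, so their values are given as a description and without a test. Each gene was represented by the oocyte transcript that the deposited table gave its name on the gene's own strand. Of the 4 genes, 3 had such a transcript among 33437 transcripts in all, namely Dcn, Lum and Kera, and the level of Epyc was not analysed here.

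Per the labels all oocytes came from 21-day-old C57BL6 females with the genotype Setd1b floxed/floxed (the study's methods name the C57BL/6OlaHsd background), and each library held the RNA of 1 oocyte. In the Setd1b cKO group (n = 4 libraries) the females were Gdf9-Cre positive, and in the Setd1b WT group (n = 3) they were Gdf9-Cre negative. The sources differ on the WT group, since the study's methods also count as WT those Cre carriers that kept an intact Setd1b allele. Gdf9-Cre is a recombinase driven by an oocyte gene promoter, so that Setd1b, a histone H3 lysine 4 methyltransferase, was deleted in the oocyte from early folliculogenesis and not in the other cells of the ovary. Whether any oocytes came from 1 female is not given, so p-values measure only the spread between these oocytes. Levels are in RPM, in which the read count is divided by the depth of the library, and are thus shares of a library rather than amounts per oocyte.

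Small leucine-rich proteoglycans are secreted proteins whose curved core of leucine-rich repeats binds collagen and limits the lateral growth of fibrils. Decorin carries a chondroitin or dermatan sulphate chain and also binds growth factors, among them TGF-beta, and cell surface receptors such as the EGF receptor. Lumican and keratocan carry keratan sulphate in the cornea, where they help to order the fibrils of the transparent stroma, and epiphycan belongs to cartilage. In the ovary decorin is mainly a product of theca and stromal cells around the follicle, not a known marker of the oocyte.

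Mapped reads per library ran from 8582493 to 12972366, and the share of reads outside the oocyte transcripts was 13.2% to 16.4% in cKO libraries and 9.57% to 9.90% in WT libraries. The part of this difference in the results was not tested. The table gave 1 value for the whole Setd1b transcript, so the floxed segment could not be examined apart from the rest. That value was 8.31, 16.7, 12.8 and 2.68 RPM in cKO and 17.7, 16.3 and 8.61 RPM in WT libraries, with overlapping groups (log2 fold change -0.61, SE 0.49, limma adjusted p = 0.533). Tested were 18179 transcripts, called genes below, of which 13514 stood for a named gene. By limma 683 of the 18179 were higher and 355 lower in cKO oocytes at an adjusted p under 0.05 and over 2-fold. These counts fell to 392 and 221 without cKO replicate 1, 328 and 232 without cKO replicate 3, 238 and 134 without WT replicate 1 and 171 and 109 without WT replicate 2. Over all genes tested the log2 fold change had a median of 0.12, which became -0.03 after centring on the median gene and 0.0065 after quantile normalisation. Higher genes were 65.8% of those called, against 46.3% after centring, 49.2% after quantile normalisation and 73.0% (836 higher, 310 lower) after scaling to the reads within transcripts. All 10 oocyte markers with a transcript in the table passed the filter on low values, and by limma 0 of the 10 passed the threshold (0 at an unadjusted p under 0.05, where 3948 of all genes, 21.7%, were, and 0 with voom on the recovered reads). Their summed level was 19217 to 21322 RPM in cKO and 22391 to 24823 RPM in WT libraries, and 8 of the 10 log2 fold changes were below 0, with a median of -0.19.

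The cluster lies on the plus strand in the order Dcn, Lum, Kera and Epyc. In GRCm38 coordinates the oocyte transcripts were chr10:97479500-97518162 for Dcn, chr10:97565501-97572703 for Lum and chr10:97607205-97613688 for Kera, and the annotation (GENCODE M21) places Epyc at chr10:97644068-97682454. A gap of 47338 bases separated the Dcn and Lum transcripts, and 34501 bases separated Lum from Kera. The other transcript of the region, the long intergenic non-coding RNA 4930473O22Rik, ran on the minus strand at chr10:97590999-97608691, between Lum and Kera. It overlapped the Kera transcript by 1487 bases. Its 5′ end in oocytes lay in intron 1 of Kera (chr10:97607378-97608772), 11760 bases beyond the start of the annotated gene. Kera, Lum and Dcn each code for leucine-rich repeats, and the stretches of Lum and Kera that resemble each other most over 75 bases, the length of a read, are shown here because Kera had at least 306 reads in each cKO library and Lum had 0. Capitals mark bases identical in both genes, which were 51 of 75 (68%). The Lum stretch, coding bases 191 to 265, is in exon 2 at chr10:97568435-97568509 (plus strand), and the Kera stretch, coding bases 209 to 283, is in exon 2 at chr10:97608989-97609063 (plus strand).
Lum: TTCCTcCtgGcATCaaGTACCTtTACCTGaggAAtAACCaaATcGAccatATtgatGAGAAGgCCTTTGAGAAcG
Kera: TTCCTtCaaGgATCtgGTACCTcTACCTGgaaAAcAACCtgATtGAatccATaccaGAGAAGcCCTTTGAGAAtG
The longest run shared by both mature mRNAs was 12 bases, and no pair of the 4 genes shared more than 14 bases, so that a 75-base read from one of them holds differences from the others. The most alike stretches of Dcn and Kera, the 2 genes of the cluster with reads in every library, matched at 41 of 75 bases (54.7%). They lie in exon 4 of Dcn (chr10:97506522-97506596) and exon 2 of Kera (chr10:97609248-97609322), both on the plus strand.
Dcn: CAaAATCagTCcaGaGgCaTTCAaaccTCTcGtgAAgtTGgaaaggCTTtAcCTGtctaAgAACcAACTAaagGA
Kera: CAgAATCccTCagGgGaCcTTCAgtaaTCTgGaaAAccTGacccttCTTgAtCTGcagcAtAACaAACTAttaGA

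**Figure D1:**
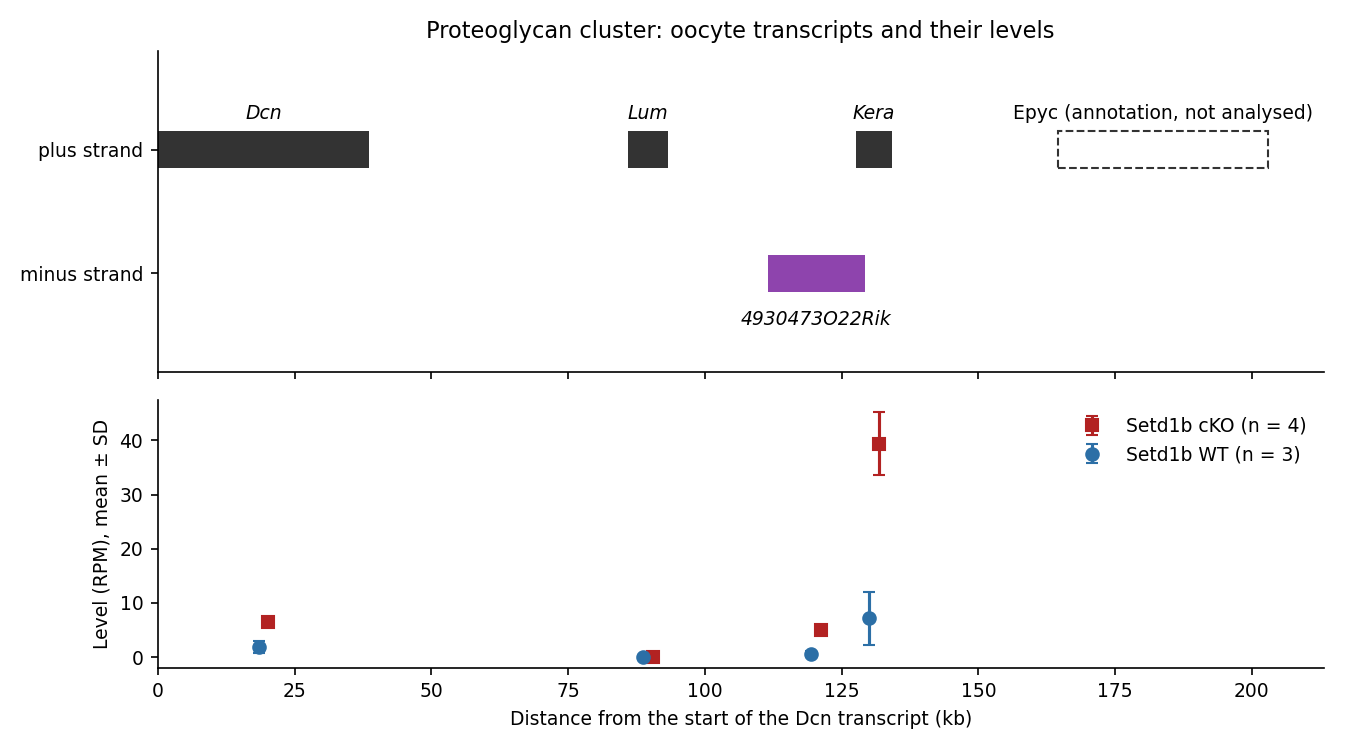
Top, positions of the oocyte transcripts of the cluster by strand, as distance in kb from the start of Dcn, with the annotated span of Epyc dashed. Bottom, mean level in RPM (bars, SD) in Setd1b cKO (squares, n = 4) and Setd1b WT (circles, n = 3), with Kera at 39.4 against 7.16 RPM, Dcn at 6.47 against 1.87 RPM, 4930473O22Rik at 4.93 against 0.534 RPM, and Lum at 0.

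Kera codes for keratocan, the corneal keratan sulphate proteoglycan. In the cKO libraries it was at 39.3, 47.7, 34.9 and 35.7 RPM (397, 579, 401 and 306 reads), and in the WT libraries at 8.67, 1.70 and 11.1 RPM (107, 22 and 119 reads). All 4 cKO libraries lay above all 3 WT libraries, and the lowest cKO library was 3.14 times the highest WT library. Means were 39.4 ± 5.85 RPM (SD, n = 4) in cKO and 7.16 ± 4.89 RPM (SD, n = 3) in WT, and the log2 fold change was 2.56 (SE 0.45) on the log2(RPM + 1) scale. WT replicate 2 was low among the WT libraries, and without it the log2 fold change was 1.89.

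Dcn, which codes for decorin, rested on fewer reads. The cKO libraries held 5.15, 7.25, 6.62 and 6.87 RPM (52, 88, 76 and 59 reads), and the WT libraries 0.891, 1.62 and 3.09 RPM (11, 21 and 33 reads). Again the groups did not overlap, but the margin was smaller than for Kera, with the lowest cKO library at 1.67 times the highest WT library. Means were 6.47 ± 0.920 RPM (SD, n = 4) and 1.87 ± 1.12 RPM (SD, n = 3), and the log2 fold change was 1.45 (SE 0.32). At such low levels the added 1 RPM lowers the fold change, and the ratio of the means was 3.47 against a fold of 2.72 from the log scale. For Kera the ratio of the means was 5.50 and the fold from the log scale 5.88. When libraries were scaled to the reads within transcripts, the log2 fold changes were 1.55 for Dcn and 2.66 for Kera. In the whole table, 13.2% of the genes tested had every cKO library above every WT library. Kera and Dcn were chosen from this contrast, so nothing is read from their place in that share.

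Lum, which codes for lumican and lies between both genes, was listed at 0 reads in all 7 libraries. If each 0 is a true count it allows up to 3 reads, or 0.231 to 0.350 RPM depending on the library. An absence of transcription is not shown by this value, since 4062 transcripts are listed at 0 in all libraries, among them Cox20, an assembly factor of cytochrome c oxidase that cells use widely. Of the 4 genes of the cluster, 2 (Dcn and Kera) passed the filter of at least 1 RPM in at least 3 libraries, which the cKO libraries alone could meet. For Kera all 7 libraries were above 1 RPM, and for Dcn all but WT replicate 1.

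**Figure D2:**
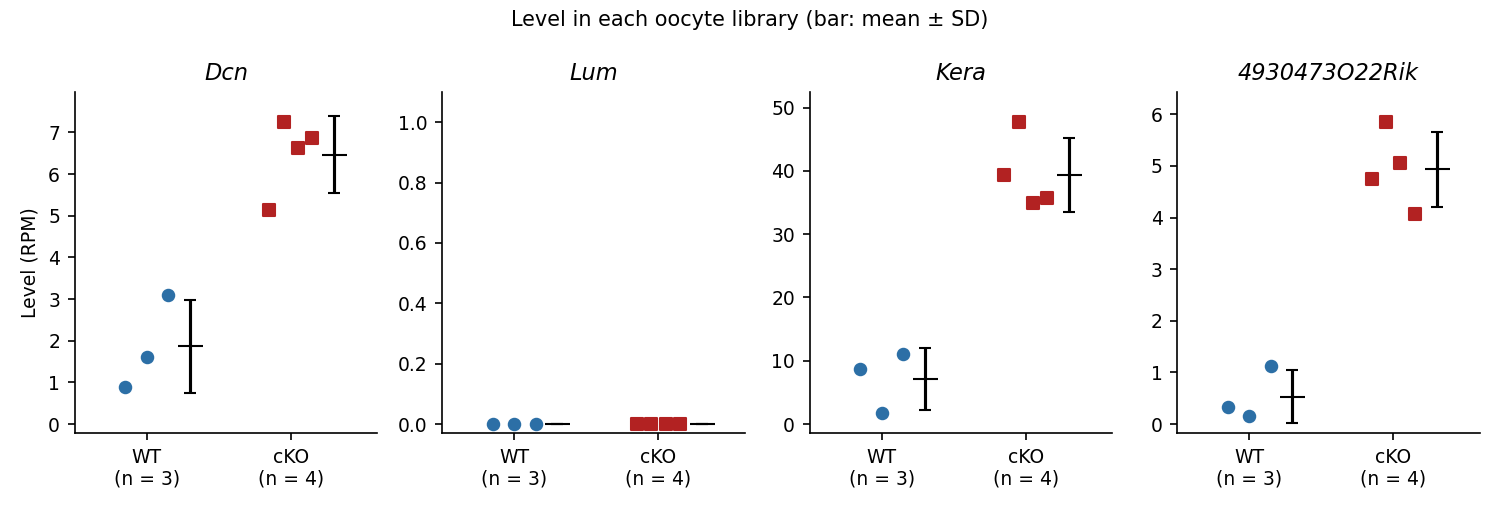
Level in RPM of Dcn, Lum, Kera and the overlapping non-coding RNA 4930473O22Rik in each oocyte library, Setd1b WT (circles) and Setd1b cKO (squares), with the mean and SD of each group beside the points. The 4 cKO libraries lie above the 3 WT libraries for Dcn, Kera and 4930473O22Rik, and every library is at 0 for Lum. Vertical scales differ between panels.

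Levels of different genes were compared per kilobase of the annotated mature transcript, which approximates the merged oocyte transcript. On this scale Kera was at 17.3 ± 2.57 RPM per kb (SD, n = 4) in cKO and 3.14 ± 2.15 (SD, n = 3) in WT oocytes. The level of Dcn was 3.68 ± 0.524 RPM per kb in cKO and 1.06 ± 0.636 in WT oocytes. Lum was listed at 0 and was given no place in the order. Kera thus headed the order of levels per length in cKO oocytes, with every cKO library above every Dcn value, whereas in WT oocytes Kera (0.744 to 4.88 RPM per kb) and Dcn (0.507 to 1.76) overlapped. The ratio of Kera to Dcn in RPM was 7.63, 6.58, 5.28 and 5.19 in the cKO libraries and 9.73, 1.05 and 3.61 in the WT libraries. Among the WT libraries both genes were highest in replicate 3, but the lowest was replicate 1 for Dcn and replicate 2 for Kera.

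The neighbouring non-coding RNA 4930473O22Rik was included for its position. It was at 4.75, 5.85, 5.05 and 4.08 RPM (48, 71, 58 and 35 reads) in cKO and at 0.324, 0.154 and 1.12 RPM (4, 2 and 12 reads) in WT libraries. The groups did not overlap, and the log2 fold change was 1.99 (SE 0.30). No test is given for it, because it overlaps Kera on the other strand and the use of strand in the counting is not given in the sources used here, so that reads in the shared 1487 bases cannot be told apart. These bases hold 173 of the 1950 exon bases of the Kera oocyte transcript, all in exon 1. If the reads of Kera were spread evenly over its exons, the shared bases would hold 35.2, 51.4, 35.6 and 27.2 of them in the cKO libraries and 9.49, 1.95 and 10.6 in the WT libraries. The reads counted for 4930473O22Rik were above these numbers in 6 libraries and below them in WT replicate 1, and 1 of the WT libraries was above 1 RPM. Whether reads were shared between both transcripts was not tested, so the values of 4930473O22Rik are not taken as independent of those of Kera. The ratio of Kera to 4930473O22Rik in RPM was 8.27, 8.15, 6.91 and 8.74 in the cKO libraries and 26.8, 11.0 and 9.92 in the WT libraries, where it rested on at most 12 reads of the non-coding RNA.

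Outside the cluster no tested transcript next to it passed the threshold. The 3 nearest transcripts on each side were examined after the values of the cluster had been seen. The nearest began 499329 bases downstream of Kera or ended 164180 bases upstream of Dcn. Of the 6, 3 passed the filter, namely Gm48555 upstream (22.9 ± 7.29 RPM in cKO, 35.7 ± 15.8 in WT, log2 fold change -0.56, limma adjusted p = 0.440) and both nearest downstream transcripts, which have no gene name (log2 fold changes 0.46 and 0.42, limma adjusted p = 0.534 and 0.560). The nearest upstream transcript, also without a gene name, was at 1.58, 0.659, 0.958 and 3.26 RPM in cKO and 0.243, 0.0771 and 0.655 RPM in WT libraries and was not tested.

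The 5′ end of the Kera transcript in oocytes, at 97607205, coincided with the start that RefSeq gives for Kera, and lay 326 bases inside the start of the GENCODE gene. In the 300 bases around the RefSeq start (chr10:97606955-97607254, GRCm38.p6, 250 bases before and 50 after it) there was 1 CpG. The median over 32851 promoters of the same length was 7, and 14.1% of them held at most 1. The window was 41% G and C and held no TATAAA on either strand, a motif found in 13.6% of the promoters. The window at the annotated start of 4930473O22Rik, which is not where the oocyte transcript began, held 2 CpG, and the alternative windows of Epyc held 2 and 1, with no TATAAA in any of them. For Dcn and Lum no promoter window was examined.

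Decorin and keratocan have relatives elsewhere in the genome, and these did not pass the threshold in either direction. The family list held 18 genes, of which 9 besides the cluster had a transcript in the table and 5 passed the filter. By limma 0 of the 5 were higher and 0 lower (1 at an unadjusted p under 0.05, and 0 with voom), where over all genes tested 3.76% were higher and 1.95% lower. Podn (podocan) was at 51.9 ± 8.25 RPM in cKO and 46.6 ± 6.77 RPM in WT oocytes (log2 fold change 0.15, limma adjusted p = 0.761), and Prelp, which anchors basement membranes to collagen, at 24.5 ± 7.83 and 39.5 ± 9.75 RPM (log2 fold change -0.68, limma adjusted p = 0.186). Biglycan (Bgn), the closest relative of decorin, was at 3.61 ± 0.892 RPM in cKO and 4.37 ± 3.17 RPM in WT oocytes, and its groups overlapped. Nyctalopin (Nyx) and asporin (Aspn) were at 4.25 ± 0.727 against 4.42 ± 0.844 RPM and 0.771 ± 0.304 against 1.26 ± 0.182 RPM. The median log2 fold change of the 5 was -0.05, beside 0.12 over all genes tested.

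Genes for the glycosaminoglycan chains that these core proteins carry were examined as a second list. The list held 37 genes, 32 of them with a transcript in the table and 21 tested, of which limma called 0 higher and 1 lower, as did voom. Among all genes tested, 3.76% were higher and 1.95% lower. At an unadjusted p under 0.05 there were 6 of 21, beside 21.7% of all genes tested. The median log2 fold change of the 21 was -0.01, with 10 above 0 and 11 below. B4galt4, a galactosyltransferase that acts in keratan sulphate synthesis, was at 88.2, 89.7, 73.7 and 66.4 RPM in cKO and 218, 220 and 238 RPM in WT libraries. The groups were far apart (log2 fold change -1.50, SE 0.20; limma adjusted p = 0.00369). The list members with the highest mean RPM were the chondroitin synthase Chsy1 (309 ± 135 RPM in cKO, 389 ± 144 in WT, limma adjusted p = 0.656) and the sulphotransferase Chst7 (195 ± 44.5 and 162 ± 72.5 RPM, limma adjusted p = 0.610), both with overlapping groups.

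Of the collagens and the proteins that assemble fibrils, which decorin and lumican bind or act beside, 30 genes were listed, 25 had a transcript in the table and 10 were tested. Pcolce2, a protein that enhances the cleavage of procollagen, was the 1 gene of the list past the threshold by limma, which called 0 lower, and voom gave the same counts. Over all genes tested 3.76% were higher and 1.95% lower, and 3 of these 10 were at an unadjusted p under 0.05, beside 21.7% of all. Pcolce2 was at 28.2, 25.8, 32.5 and 31.0 RPM in cKO and 8.18, 3.78 and 4.21 RPM in WT libraries (log2 fold change 2.31, SE 0.28; limma adjusted p = 0.00280). The lysyl oxidase Loxl2, which cross-links collagen, was at 124, 53.3, 68.3 and 188 RPM in cKO and 18.6, 12.7 and 80.6 RPM in WT libraries. Its groups overlapped through WT replicate 3 (log2 fold change 1.79, SE 0.59; limma adjusted p = 0.102). Loxl2 passed the threshold without that library (log2 fold change 2.56, limma adjusted p = 0.0131). The procollagen protease Adamts3 was at 32.4 ± 10.7 and 35.7 ± 10.4 RPM (limma adjusted p = 0.840). The fibril collagens that decorin binds were near 0, with Col1a1 at 0.279 ± 0.102 RPM in cKO and 0.301 ± 0.161 RPM in WT oocytes and Col1a2 and Col3a1 listed at 0 in all 4 cKO libraries. The median log2 fold change of the 10 genes tested was 0.43.

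Ligands and receptors of decorin included 23 listed genes, of which 15 had a transcript in the table and 10 were tested. Of these, limma called 2 lower and 0 higher, as did voom, and the median log2 fold change was 0.12. Over all genes tested 1.95% were lower, and 21.7% were at an unadjusted p under 0.05, as were 5 of these 10. Egfr, the EGF receptor, which decorin binds and down-regulates, was at 24.4, 26.8, 19.9 and 13.4 RPM in cKO and 101, 67.1 and 52.3 RPM in WT libraries (log2 fold change -1.74, SE 0.30; limma adjusted p = 0.00952). Tgfb2, a growth factor of the TGF-beta family, was at 360, 362, 274 and 312 RPM in cKO and 731, 772 and 590 RPM in WT libraries (log2 fold change -1.09, SE 0.21; limma adjusted p = 0.0145). For both genes all cKO libraries lay below all WT libraries. The share of all genes tested with this order is not given here, so nothing is read from it. Without WT replicate 2 neither passed the threshold (limma adjusted p = 0.0505 for Egfr and 0.0856 for Tgfb2). Leaving out cKO replicate 3 (limma adjusted p = 0.0536) or WT replicate 1 (0.0725) also ended the call of Tgfb2, as did quantile normalisation (log2 fold change -0.97).

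The fifth list held 30 other proteoglycans, of which 19 had a transcript in the table and 13 were tested. Cspg5 (neuroglycan C), a membrane chondroitin sulphate proteoglycan of the nervous system, was at 10.9, 11.1, 15 and 17.4 RPM in cKO and 3.81, 0.463 and 1.31 RPM in WT libraries (log2 fold change 2.50, SE 0.39; limma adjusted p = 0.00645). None of the other 12 passed the threshold by limma, and voom also called 1 higher and 0 lower. Beside this 1 of 13, 3.76% of all genes tested were higher, and 2 of the 13 were at an unadjusted p under 0.05, beside 21.7% of all. Serglycin (Srgn), the proteoglycan of secretory granules, was at 76.6 ± 13.9 and 85.4 ± 11.4 RPM, and syndecan 1 (Sdc1) at 49.9 ± 5.56 and 48.3 ± 3.73 RPM (limma adjusted p = 0.732 and 0.935).

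Over the 5 matrix lists together, without the cluster itself, 58 genes were tested, of which 2 (3.45%) were higher and 3 (5.17%) were lower. The shares over all genes tested were 3.76% and 1.95%. Without cKO replicate 4 the number of higher genes was 7, and without WT replicate 2 the number of lower genes was 1. Called genes stood in 4 of the 5 lists, with 1 or 2 in each, and no list was tested as a set.

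**Figure D3:**
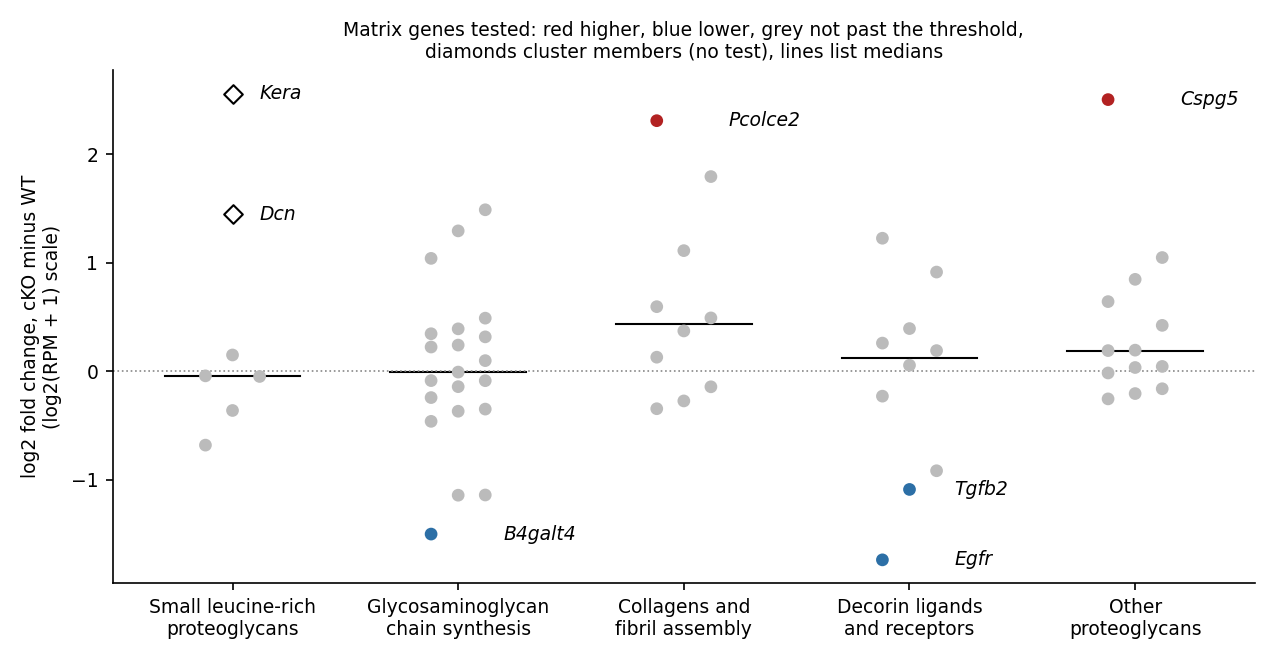
The log2 fold change, cKO minus WT on the log2(RPM + 1) scale, of every tested gene in 5 extracellular matrix lists, 1 point per gene, with the list median without the cluster as a line. Cspg5 and Pcolce2 (red) were higher and B4galt4, Tgfb2 and Egfr (blue) lower past the limma threshold, grey points were not, and the diamonds show Kera and Dcn, which were not tested.

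Markers of other ovarian cells were examined because decorin is known from theca and stroma. Of 16 theca and stroma markers 12 had a transcript in the table, and their summed level was 6.99 to 16.7 RPM in cKO and 1.4 to 6.48 RPM in WT libraries. Postn (periostin), a matrix protein, made up most of this in cKO libraries, at 11.4, 8.81, 7.14 and 5.94 RPM in cKO and 1.86, 2.85 and 0.374 RPM in WT libraries (log2 fold change 1.88, SE 0.38; limma adjusted p = 0.0181). Postn was the 1 of 3 tested that passed the threshold by limma, as by voom, and 2 of the 3 were at an unadjusted p under 0.05, where over all genes 3.76% were higher and 21.7% at such a p. Among the others, Pdgfrb was listed at 0 reads in all 7 libraries, and Mgp, Tcf21 and Cyp17a1 were at no more than 3 reads in any library. Col1a2 and Col3a1 were listed at 0 in every cKO library, with 4, 2 and 0 reads and 8, 0 and 0 reads in WT libraries. As for Lum, a listed 0 does not show an absence of transcription. The steroidogenic enzyme Cyp11a1 had 8, 4, 0 and 3 reads in cKO and 14, 8 and 5 reads in WT libraries. The stromal receptor Pdgfra had 11, 4, 6 and 0 reads in cKO and 1, 0 and 0 reads in WT libraries, and Nr2f2 had 1, 18, 16 and 1 reads in cKO and 21, 10 and 4 reads in WT libraries. Mfap5, a microfibril protein, was at 2.87, 1.15, 1.74 and 0.350 RPM in cKO and 0.0810, 0.463 and 0 RPM in WT libraries (limma adjusted p = 0.138, and 0.0367 without cKO replicate 4). The call of Postn was lost without cKO replicate 1 (limma adjusted p = 0.0552) or WT replicate 1 (0.0570), and with a pseudocount of 5 RPM, where the log2 fold change was 0.99. The part of such cells in the levels of Dcn or Kera was not tested.

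All 12 granulosa markers had a transcript in the table, with a summed level of 76.2 to 89.9 RPM in cKO and 50.0 to 70.7 RPM in WT libraries, and limma called 0 of the 6 tested (1 at an unadjusted p under 0.05, and 0 with voom). Over all genes tested 3.76% were higher, 1.95% lower and 21.7% at an unadjusted p under 0.05. Nr5a2 (38.8 ± 8.26 and 27.8 ± 0.428 RPM, limma adjusted p = 0.281) and Cyp19a1 (26.6 ± 5.13 and 22.8 ± 5.19 RPM, limma adjusted p = 0.692) held most of that sum. The inhibin gene Inha had 71, 139, 152 and 5 reads in cKO and 10, 56 and 0 reads in WT libraries (log2 fold change 1.70, SE 0.76; limma adjusted p = 0.225). Hsd17b1 had 6, 25, 20 and 0 reads in cKO and 6, 0 and 2 reads in WT libraries, and Amh and Foxl2 had no more than 3 reads in any library. The part of granulosa cells in the levels of the cluster was not tested. Of 16 markers of endothelial, muscle, immune, surface epithelial and blood cells 11 had a transcript in the table. Their sums were 53.8 to 71.7 RPM in cKO and 69.8 to 78.7 RPM in WT libraries. Krt18, Krt19 and Hba-a1 were listed at 0 in all libraries, which, as for Lum, does not show an absence of transcription. Cd68, a lysosomal protein of macrophages, was the 1 of 6 tested that passed the threshold (8.91 ± 3.44 RPM in cKO, 2.72 ± 0.885 RPM in WT, log2 fold change 1.36, limma adjusted p = 0.0435). Of the same 6, 2 were at an unadjusted p under 0.05, and voom called 0. That call of Cd68 was lost in 11 of 19 alternatives. These were the fits without cKO replicate 1, 2 or 4 or WT replicate 1 or 2 (limma adjusted p from 0.0557 to 0.167), no filter (0.0912), centring on the median gene (0.0779), quantile normalisation, voom (0.0704), the replicate block (0.0699) and a pseudocount of 5 RPM (0.0570). Myh11 (29.7 ± 2.44 and 44.2 ± 4.26 RPM) and Pecam1 (11.9 ± 5.15 and 17.3 ± 3.76 RPM) had the highest mean RPM of that list, and neither passed the threshold.

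The genes with the nearest profiles over the 7 libraries were found among 13514 named genes tested, by the root mean square difference of log2(RPM + 1) after each profile was centred on its mean. For Dcn these were the collagen-binding receptor Antxr1 (difference 0.12), Gm4825 (0.16) and Prl7d1 (0.18), a prolactin family gene. Antxr1 was at 4.26, 7.0, 6.79 and 5.24 RPM in cKO and 0.648, 1.16 and 2.71 RPM in WT libraries, which follows the order of Dcn in WT, from replicate 1 as the lowest to replicate 3 as the highest. For Kera they were the transcription factor gene Sox5 (0.42), Gm26629 (0.43) and 4930592C13Rik (0.49). Sox5 was at 6.33, 7.33, 8.71 and 8.86 RPM in cKO and 1.38, 0.0771 and 1.03 RPM in WT libraries, and like Kera it was lowest in WT replicate 2. The overlapping 4930473O22Rik, which may share reads with Kera, ranked 8 for Kera (0.55) and 135 for Dcn (0.36). Kera and Dcn differed from each other by 0.85, which ranked Dcn 209 among the profiles compared with Kera and Kera 7083 among those compared with Dcn. These neighbours by profile were chosen for their likeness over the same libraries.

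**Figure D4:**
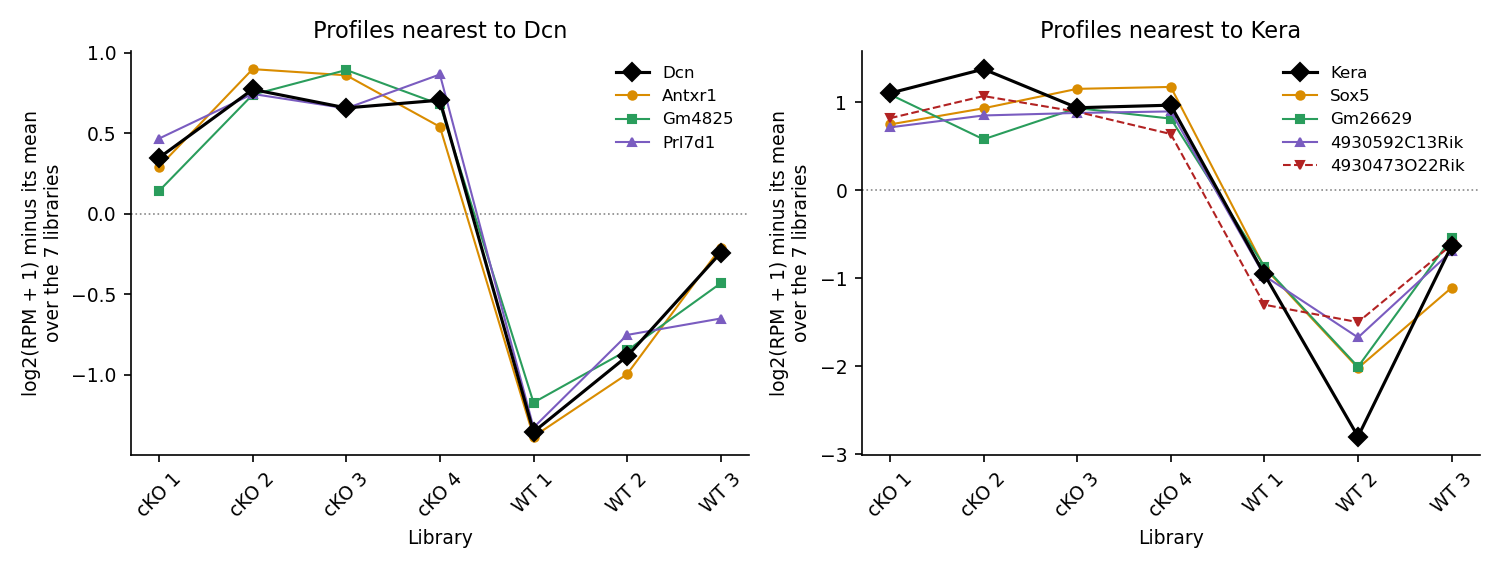
Level of each gene in each library as log2(RPM + 1) minus its mean over the 7 libraries, for Dcn (left) and Kera (right, black diamonds) with the 3 nearest profiles and, for Kera, the overlapping 4930473O22Rik (dashed). The lines join values of a gene and imply no order of libraries. Kera falls lowest in WT replicate 2 and Dcn in WT replicate 1, and their nearest genes do the same.

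**Figure D5:**
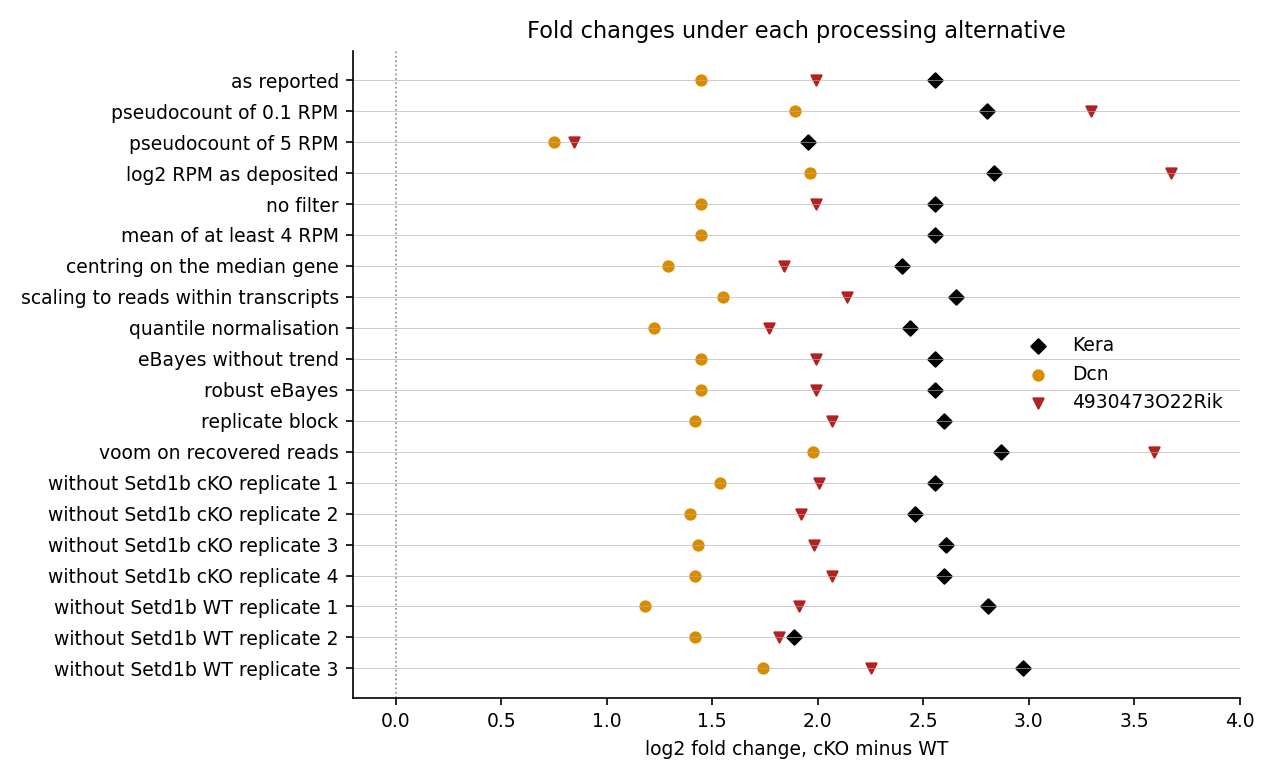
The log2 fold change, cKO minus WT, of Kera (diamonds), Dcn (circles) and 4930473O22Rik (triangles) as reported and under each processing alternative that gave a value. Every value lies above 0, Dcn between 0.75 and 1.98, Kera between 1.89 and 2.97 and 4930473O22Rik between 0.84 and 3.68.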

How the data were processed

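Per the labels and the study's methods, the authors amplified cDNA of single GV oocytes (SMARTer Ultra Low), built libraries with NEBNext Ultra, sequenced 75-base single reads, trimmed with trim galore, mapped with Hisat to GRCm38, removed reads under a mapping quality of 20 and quantified oocyte transcripts with merged isoforms in SeqMonk. The submitters' processing notes name bcl2fastq 1.8.4 and featureCounts 1.4.4. A WT library failed. The authors deposited log2 RPM values, scaled to mapped reads, with 0.9 read in place of 0. On the linear scale 100% of the other values were whole multiples of 1 read (tolerance 0.1 read), which gave 8582493 to 12972366 mapped reads per library. The depth limits transcripts of a few reads, and read limits cover counting error only.

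The file held log2 RPM and not counts, so genotypes were compared with limma 3.58.1 (lmFit, eBayes with trend) in R 4.3.3 on log2(RPM + 1), for transcripts of at least 1 RPM in at least 3 libraries, without covariates. The threshold was an adjusted p under 0.05 (Benjamini-Hochberg over all 18179 genes) with a change over 2-fold. List genes and Setd1b were named from GENCODE M21 by span (overlap at least 0.5 of the union), or else by the table's gene on the same strand, and the cluster and 4930473O22Rik by the table. Promoter windows were from RefSeq, where Kera, Epyc and 4930473O22Rik matched. Named genes were Setd1b, the cluster, its neighbours, of each list those past the threshold (at most 5) and the 2 with the highest mean, and the 3 nearest profiles. Other genes were named after their values were seen. The cluster and the gene lists were chosen with earlier results of these data known. On simulated data the fit was tested with known changes. Alternatives were other pseudocounts, filters, scalings, variance fits, a replicate block, voom on the recovered reads and each library left out. Tables and figures were made with Python 3.11.15 (numpy 2.4.6, pandas 2.3.3, matplotlib 3.10.9).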

Additional observations from a re-analysis of the deposited data

Results flagged for a closer look

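Of 37 values of named genes examined for a cKO library far from the others, 2 stood out, and chance alone gives about 1 in 20. For Prelp, cKO replicate 4 was at 36.1 RPM and the other 3 at 19.4 to 22 RPM, a gap of 0.848 of the range. For Srgn, cKO replicate 4 was at 97.3 RPM and the other 3 at 68.8 to 71.0 RPM, a gap of 0.923 of the range. The WT group, with 3 libraries, was not examined. No member of the cluster stood out in this way.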

How the results depend on the processing

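Under the 19 alternatives run for each, Kera and Dcn kept the direction of their difference. The log2 fold change of Kera moved by less than its spread between replicates (pooled SD 0.76 on the log2 scale) in all 19. The spread of Dcn was smaller (pooled SD 0.38), so both genes were not held to the same limit. The log2 fold change of Dcn moved by more than its spread in 4. It became 1.89 with a pseudocount of 0.1 RPM, 0.75 with 5 RPM, 1.96 on the deposited log2 RPM and 1.98 with voom on the recovered reads. For 4930473O22Rik, 18 alternatives gave a value (a mean of at least 4 RPM left it out), all above 0, and with a pseudocount of 5 RPM the log2 fold change was 0.84. The number of genes higher over the whole table, 683, became 315 with a pseudocount of 5 RPM, 396 without a filter, 428 with quantile normalisation and 443 with voom. Leaving out 1 library gave 171 to 850 higher and 109 to 437 lower genes, and 2 to 7 higher and 1 to 3 lower matrix genes. Centring on the median gene gave 6 lower matrix genes. The cause of these changes was not tested.

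The replicate numbers shared by both genotypes gave correlations of deviations of 0.192, 0.295 and -0.129. No pairing of the oocytes was evident from these values, which cannot settle whether there was any. With the replicate number as a block, 924 genes were higher and 479 lower over the whole table, and 7 matrix genes were higher. Dcn, Kera and 4930473O22Rik differed by 1.42, 2.60 and 2.07 on the log2 scale under the block. Because cKO replicate 4 has no WT partner, the block also removes it, and these log2 fold changes equal those without that library, where 850 genes were higher, 437 lower and 7 matrix genes higher.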
